A study of Mus musculus with 81 samples.

Results

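ORR1B and ORR1C are neighbouring groups of the ORR1 family of mouse LTR retrotransposons. The elements described here were the 51184 loci whose species name begins with ORR1B or ORR1C, 5.27% of the 970384 LTR loci measured, and only the name chose them. They fell into 8 subtypes, of which ORR1B1, ORR1B2, ORR1C1 and ORR1C2 are the LTRs and the names ending in -int are the internal parts between 2 LTRs. RNA came from testes of E18.5 male fetuses of the OG2 line, which carries EGFP under the Pou5f1 promoter and distal enhancer and was kept on a C57BL/6J background. F0 dams drank water with 50 nM tributyltin (TBT), an organotin obesogen, or with the vehicle DMSO. F1 fetuses were exposed in utero, and F3 fetuses descended from the same exposure lines without exposure of their own. Cells were sorted into EGFP-positive germline populations P4 and P5, which the sort separated by side scatter, and EGFP-negative P6 somatic cells. The F1 DMSO and TBT groups held 5 and 7 P4 libraries, 4 and 7 P5 libraries, and 5 and 7 P6 libraries, and in F3 each population held 4 DMSO and 5 TBT libraries. Methylated DNA of P6 cells was captured with a methyl-CpG-binding domain protein (MBD) in 3 DMSO and 4 TBT libraries of F1 and in 5 and 7 of F3.

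ORR1 elements belong to the mammalian apparent LTR retrotransposons, a nonautonomous branch of the ERVL group. Their LTRs hold the promoter and the polyadenylation signal, and their internal parts code for no protein. The letters A to E run from the younger to the older subfamilies, so that ORR1B and ORR1C lie in the middle of that order. Copies lie in introns and between genes throughout the genome, where an intronic copy is transcribed passively with its host gene, and male germ cells of this fetal stage are rebuilding the DNA methylation and piRNA defences that silence such elements.

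The mERV values were CPM, read counts relative to the TMM-scaled library size, at each LTR locus. The libraries held from 246520 to 8161548 reads over all loci. The shallow ones were F3 P5 TBT 5 with 246520 reads, F3 P4 TBT 5 with 833449, F3 P4 TBT 9 with 1187234, F3 P5 DMSO 2 with 1606422 and F3 P5 DMSO 1 with 2017404. LTR loci inside germ cell genes such as Ddx4 and Dazl summed to between 8813 and 17277 CPM in F1 P4 libraries, between 6373 and 13335 CPM in F1 P5 libraries and between 20.1 and 41.1 CPM in F1 P6 libraries. Loci inside somatic testis genes such as Gata4 and Nr5a1 summed to between 1017 and 1316 CPM in P6 libraries of both generations and to at most 104 CPM in germline libraries. 8 of 10 germ cell markers and 7 of 12 somatic markers held an LTR locus and could be read in this way, and Sox9 and Amh held none. The lowest germ cell sums of F3 were 927 CPM in a P4 TBT library and 127 CPM in a P5 TBT library. In bulk samples, fewer cells of a type and less RNA per cell cannot be told apart.

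ORR1B1 was the most numerous subtype with 17281 loci, followed by ORR1C2 with 12456, ORR1B2 with 8515 and ORR1C1 with 7416. The internal parts were fewer, with 2963 loci of ORR1B1-int, 913 of ORR1C2-int, 857 of ORR1B2-int and 783 of ORR1C1-int. The median length was 340 bp for ORR1B1, 310 bp for ORR1B2, 315 bp for ORR1C1 and 226 bp for ORR1C2. Most elements lay outside annotated genes. The share was 65.5% outside genes, 32.4% in introns and 2.13% overlapping an exon, close to the 64.5%, 33.0% and 2.48% of all LTR loci. The Y chromosome held 5146 elements and the X chromosome 2792.

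Few CpG sites remained in the LTRs. Among loci of 250 to 400 bp, the 27223 ORR1B and ORR1C LTRs held 0.505 CpG sites per 100 bp, between the 0.359 of ORR1A and the 0.695 of ORR1D and ORR1E, against 0.813 for all LTR loci of that length. The letters TATAAA, the core of a TATA box, were present on either strand in 44.5% of ORR1B1, 48.5% of ORR1B2, 41.8% of ORR1C1 and 29.2% of ORR1C2 loci, against 45.3% of ORR1A, 26.1% of ORR1D and ORR1E and 26.6% of all 280733 LTR loci of that length. The letters AATAAA, the polyadenylation signal, were present on either strand in 30.9% of ORR1B1, 40.6% of ORR1B2, 22.1% of ORR1C1 and 30.2% of ORR1C2 loci, against 10.7% of ORR1A, 35.6% of ORR1D and ORR1E and 43.1% of all. A match is a description of these letters and not of use by a factor.

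The sequences below show 1 expressed LTR of each subtype, the copy outside genes with the highest mean over the 41 P4 and P5 libraries, and the 2 LTRs that were higher in TBT-F1 P5 germline cells. They were read from GRCm38.p6 (mm10) on the forward strand of the genome, since the tables give no strand, and at most the first 300 bases are shown. Capitals mark TATAAA or AATAAA on either strand, so that TTTATA and TTTATT are the same letters read on the reverse strand.
ORR1B1, chr5:109735518-109735817: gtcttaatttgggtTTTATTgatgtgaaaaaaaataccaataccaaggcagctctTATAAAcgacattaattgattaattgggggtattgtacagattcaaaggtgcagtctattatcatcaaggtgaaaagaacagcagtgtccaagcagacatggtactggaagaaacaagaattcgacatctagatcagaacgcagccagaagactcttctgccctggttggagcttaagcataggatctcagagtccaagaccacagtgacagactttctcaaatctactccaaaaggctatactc
ORR1B2, chr4:128974771-128975070: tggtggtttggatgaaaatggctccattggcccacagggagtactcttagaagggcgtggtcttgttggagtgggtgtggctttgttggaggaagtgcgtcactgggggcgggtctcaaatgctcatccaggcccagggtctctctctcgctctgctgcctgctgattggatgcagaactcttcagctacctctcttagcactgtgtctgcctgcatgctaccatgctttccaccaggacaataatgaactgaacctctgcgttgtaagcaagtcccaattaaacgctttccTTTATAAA
ORR1C1, chr5:119986914-119987213: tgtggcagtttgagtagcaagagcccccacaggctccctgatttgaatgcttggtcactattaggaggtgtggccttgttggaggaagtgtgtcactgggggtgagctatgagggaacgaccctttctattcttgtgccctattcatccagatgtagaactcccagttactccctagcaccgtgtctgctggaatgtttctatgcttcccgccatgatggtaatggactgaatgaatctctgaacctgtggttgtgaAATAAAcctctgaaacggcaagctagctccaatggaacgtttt
ORR1C2, chr14:120767204-120767503: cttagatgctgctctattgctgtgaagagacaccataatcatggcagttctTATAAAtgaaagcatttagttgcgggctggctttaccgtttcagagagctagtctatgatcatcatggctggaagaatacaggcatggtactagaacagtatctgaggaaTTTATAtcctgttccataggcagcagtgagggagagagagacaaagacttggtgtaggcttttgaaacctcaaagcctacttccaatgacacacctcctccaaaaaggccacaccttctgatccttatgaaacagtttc
ORR1B1, chr19:56823137-56823436: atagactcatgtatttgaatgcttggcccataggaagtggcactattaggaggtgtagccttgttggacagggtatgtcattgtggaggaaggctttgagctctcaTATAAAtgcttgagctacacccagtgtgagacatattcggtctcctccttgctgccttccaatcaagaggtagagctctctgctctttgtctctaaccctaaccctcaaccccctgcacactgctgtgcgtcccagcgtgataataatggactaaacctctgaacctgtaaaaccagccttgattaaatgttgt
ORR1B1, chr5:148244037-148244319: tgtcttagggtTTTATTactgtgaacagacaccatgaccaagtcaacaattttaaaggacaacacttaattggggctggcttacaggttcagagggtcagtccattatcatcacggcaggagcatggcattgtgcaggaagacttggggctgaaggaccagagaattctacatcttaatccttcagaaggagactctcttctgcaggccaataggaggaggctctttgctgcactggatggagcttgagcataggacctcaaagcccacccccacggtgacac
The first 4 had means of 14.6, 8.23, 37.9 and 6.95 CPM. Aligned over 240 to 324 bases, whichever strand matched, any 2 of the 6 were between 74.3% and 82.8% identical, and the 3 ORR1B1 copies were 74.8%, 79.0% and 80.1% identical to each other. The ORR1C1 copy carried 2 AATAAA matches and no TATAAA match over its 365 bp, and the ORR1B2, the ORR1C2 and the chromosome 19 ORR1B1 copies carried TATAAA on both strands.

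Together the elements took up a nearly constant share of LTR reads, near their 5.27% share of loci. The share ranged from 6.15% to 6.27% in F1 P4 libraries, from 5.95% to 6.14% in F1 P5, from 5.56% to 5.97% in F1 P6, from 6.23% to 6.52% in F3 P4, from 5.35% to 6.25% in F3 P5 and from 5.56% to 5.64% in F3 P6. Per length, the LTRs had the higher means. In DMSO-F1 P4 cells ORR1C2 stood at 5175 CPM per Mb, ORR1C1 at 5148, ORR1B2 at 4524 and ORR1B1 at 3983, and the internal parts at 3684 for ORR1B1-int, 2259 for ORR1C1-int, 1537 for ORR1B2-int and 1472 for ORR1C2-int. ORR1C2 and ORR1C1 overlapped in their ranges, as did ORR1B2-int and ORR1C2-int. The ORR1B1 LTR, from 3766 to 4277 CPM per Mb, also overlapped its internal part, from 3452 to 3937. ORR1A stood at 3172 and ORR1D with ORR1E at 4421 CPM per Mb in the same libraries.

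**Figure D1:**
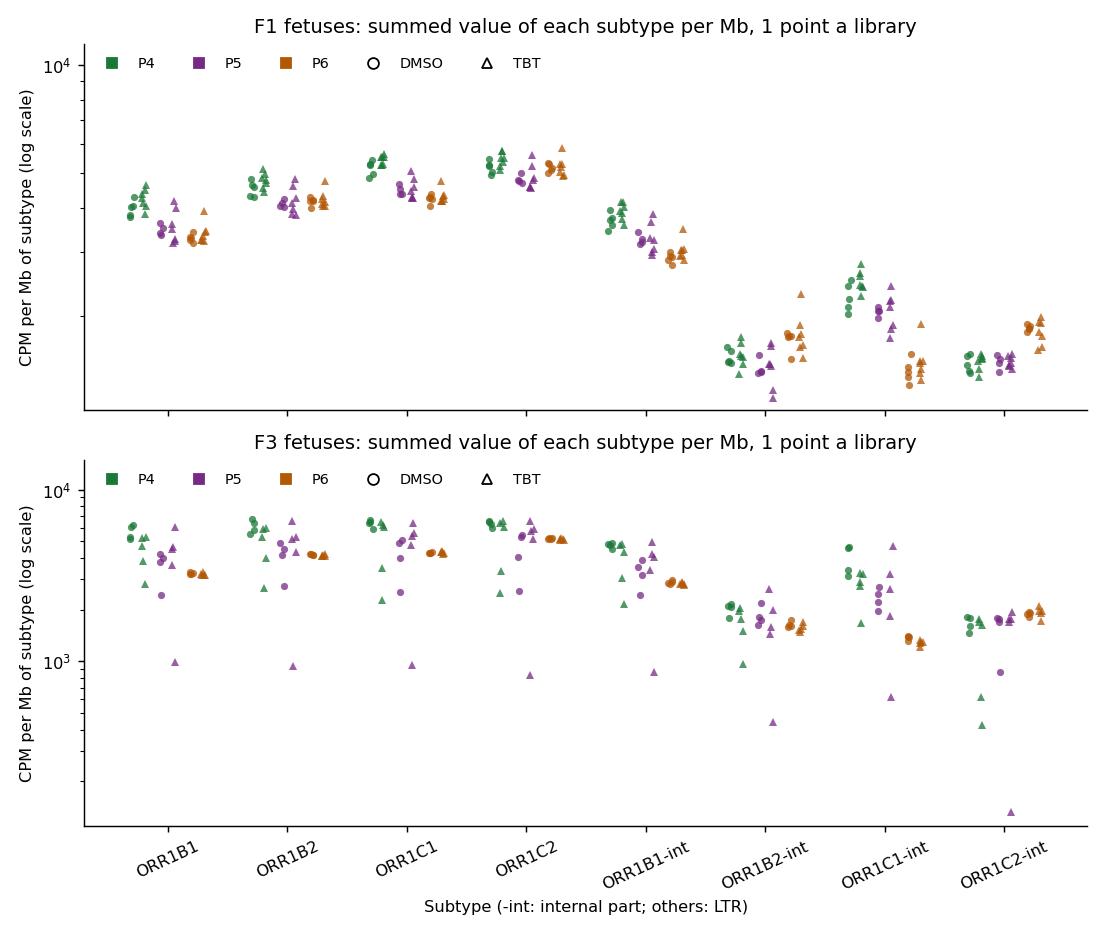
Summed CPM of each subtype divided by its total length in Mb, on a log axis, for F1 (top) and F3 (bottom) fetuses. Each point is a library, coloured by population, with circles for DMSO and triangles for TBT. In each library the LTR subtypes and ORR1B1-int lie above the other internal parts, and the lowest F3 points belong to the shallow P5 library TBT 5.

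The internal parts differed in how they stood across populations. In DMSO-F1 cells ORR1C1-int stood at 2259 CPM per Mb in P4, 2050 in P5 and 1407 in P6, whereas ORR1C2-int stood at 1472, 1484 and 1852 and ORR1B2-int at 1537, 1434 and 1712. In DMSO-F3 cells the same 3 populations gave 3937, 2339 and 1373 CPM per Mb for ORR1C1-int, 1670, 1527 and 1882 for ORR1C2-int and 2025, 1843 and 1636 for ORR1B2-int. The mean of ORR1B2-int was thus highest in P6 in F1 and lowest there in F3. Its DMSO range in P6 overlapped those of P4 and P5 in F1 and that of P5 in F3. All LTR loci summed to between 1204550 and 1383740 CPM in DMSO-F3 P4 libraries and between 988786 and 1018210 CPM in DMSO-F3 P6 libraries. The DMSO ranges of ORR1C1-int in P4 and P6 did not overlap in either generation. Germline and P6 cells were normalised in separate tables, so these levels stand side by side without a test.

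Most reads were counted at elements inside genes. Elements outside genes, 65.5% of the loci, gave between 1.06% and 1.52% of the ORR1B and ORR1C reads in F1 P4 libraries and between 2.3% and 4.46% in F1 P5 libraries. In F1 P6 cells the share was 0.36% to 0.65% in the DMSO libraries and had a lowest value of 0.26% and a median of 0.74% in the TBT libraries, of which TBT 7 and TBT 8 stood apart at 5.30% and 5.60%. In F3 it was 1.29% to 2.74% in P4 libraries other than TBT 5 and TBT 9, which stood at 7.25% and 6.97%. In F3 P5 cells DMSO 1, DMSO 2 and TBT 5 stood at 14.8%, 20.5% and 19.9%, and the other 6 libraries between 3.71% and 7.48%. In F3 P6 cells it was 0.36% to 0.56%. All LTR loci shared the libraries that stood apart, with 12.1% as the highest F3 P4 value and 31.1% as the highest F3 P5 value. Reads from genomic DNA or unspliced RNA were not measured, and their part in these shares was not tested.

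**Figure D2:**
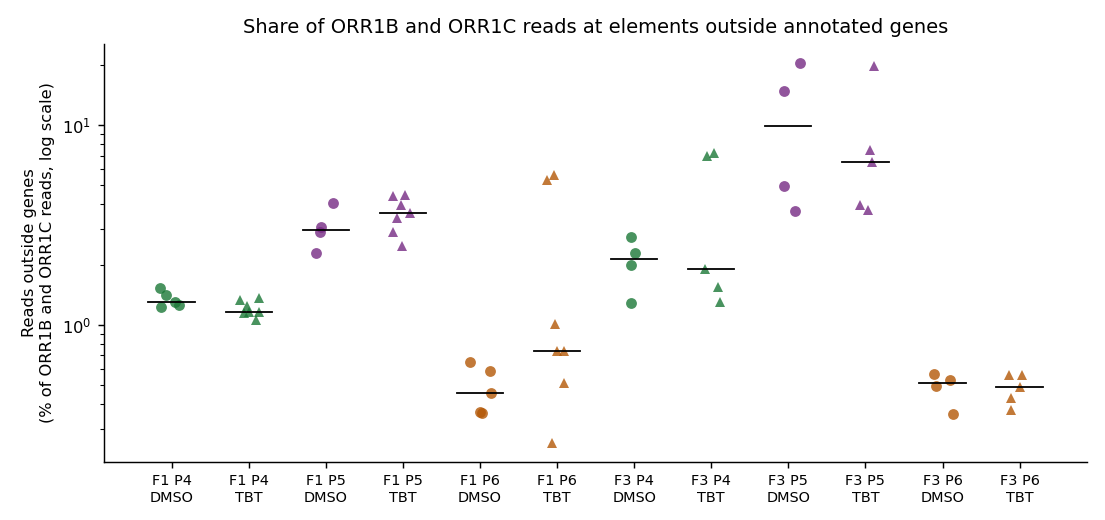
Percentage of ORR1B and ORR1C reads that lie at elements outside annotated genes, on a log axis, in each library of the 12 groups (circles DMSO, triangles TBT, black lines medians). F1 P5 libraries lie above every F1 P4 library, and a few F1 P6, F3 P4 and F3 P5 libraries stand apart from their groups.

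Values inside genes often repeated from locus to locus. Among F1 germline libraries, 36.8% of the 5087 tested intronic elements had values identical in every library to those of another LTR locus on the same chromosome, and among F1 P6 libraries 46.4% did, against 38% and 48.8% of all intronic LTR loci. Outside genes the share was 2.11% and 0%. A host gene with several elements is therefore counted several times in the totals and shares above and in the locus counts below. How much of the signal inside genes repeats reads of the host gene was not tested. The highest values inside genes show this. ORR1B1 at chr15:11987560-11987698, chr15:11988185-11988285 and chr15:11988297-11988399 and ORR1B2 at chr15:11988654-11988992 lie in an intron of Sub1, which codes for a transcriptional coactivator, and had nearly equal values in every library. The element at chr15:11988185-11988285 had 680 ± 88.0 CPM (SD, n = 5) in DMSO-F1 P4 cells. In P6 cells the ORR1C2 element at chr12:8937772-8938013, in an intron of the lysosomal membrane protein gene Laptm4a, was highest, with 472 ± 55.3 CPM (SD, n = 5) in DMSO-F1 and 398 ± 43.1 (SD, n = 4) in DMSO-F3. The same element had 29.2 ± 11.7 CPM (SD, n = 5) in DMSO-F1 P4 cells and 76.0 ± 11 (SD, n = 4) in DMSO-F1 P5 cells.

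Outside genes, the highest elements of germline cells were ORR1C1 and ORR1C1-int copies that were at or near 0 in somatic cells. The ORR1C1 LTR at chr5:119986914-119987278, printed above, had 28.7 ± 3.44 CPM (SD, n = 5) in DMSO-F1 P4 cells, 25.6 ± 3.37 (SD, n = 4) in DMSO-F1 P5 cells and 0 reads in all 5 DMSO-F1 P6 libraries, and 5 of 7 TBT-F1 P6 libraries were at 0. In DMSO-F3 it had 56.6 ± 16.3 CPM (SD, n = 4) in P4, 32.5 ± 15.5 in P5 and 0 reads in all 9 P6 libraries of both exposures. ORR1C1-int at chr10:35450623-35452169 and ORR1C1 at chr14:41379734-41380078 followed, with 26.1 ± 4.52 and 20.8 ± 4.99 CPM (SD, n = 5) in DMSO-F1 P4 cells, and each was above 0 in every one of the 41 germline libraries. In P6 cells each of these 2 was at 0 in at least 4 of the 5 DMSO-F1 libraries.

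The highest elements outside genes in P6 cells were others and were lower. ORR1B1 at chr2:28507467-28507825 had 11.2 ± 2.86 CPM (SD, n = 5) in DMSO-F1 P6 cells against 0.748 ± 0.427 in DMSO-F1 P4 cells. ORR1B1 at chr13:12822473-12822850 was the highest in DMSO-F3 P6 cells, with 9.87 ± 4.55 CPM (SD, n = 4), and was at 0 in 4 of 5 DMSO-F1 P4 libraries. ORR1B1 at chr5:109735518-109735857, the first sequence above, was detected in every P4, P5 and P6 library, with DMSO means from 4.45 CPM in F3 P6 to 22.2 CPM in F3 P4 cells. ORR1B2-int at chrX:151757434-151757909 had 7.97 ± 3.19 CPM (SD, n = 5) in DMSO-F1 P6 cells and 4.18 ± 1.49 in DMSO-F1 P4 cells, and their ranges overlapped.

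The comparison of P5 with P4 asked how the germline populations differ, with exposure as a term of the model. In F1, 6 of the 8 subtype totals were lower in P5 than in P4, and in DMSO libraries alone ORR1C1-int did not pass (-0.14, FDR = 0.0714). Over all 677 species totals tested, 42.7% were lower and 23.8% higher. ORR1B1 totals had a lowest, median and highest value of 19357, 20998 and 23796 CPM in the 12 P4 libraries and of 16346, 17901 and 21404 CPM in the 11 P5 libraries. All but 2 of the P5 libraries lay below every P4 library. ORR1B1 fell by 0.24 on the log2 scale (SE 0.042, FDR = 3.66e-05, limma), ORR1C1 by 0.24 (SE 0.030) and ORR1C2 by 0.14 (SE 0.033, FDR = 0.00067). ORR1B2-int and ORR1C2-int did not pass the threshold, with differences of -0.11 (SE 0.051, FDR = 0.0654) and 0.0064 (SE 0.030, FDR = 0.867).

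Direction depended on the scale. With each library scaled to a common total, the median of all loci moved from -0.11 to 0.037 (log2). Then 4 subtype totals were lower, ORR1C2-int was higher by 0.16 (FDR = 0.000215), and ORR1B2 (-0.013, FDR = 0.128) and ORR1C2 (0.015, FDR = 0.0642) were not past the threshold. On the deposited scale ORR1B2-int passed it, as lower, without P5 DMSO 44-1 (FDR = 0.0444), without P4 TBT 47-3 (0.0359), without P5 TBT 47-4 (0.0228) or without P5 TBT 47-5 (0.0271), whereas on a common total its difference was 0.049.

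Among single elements, 5546 of the 51184 passed the filter of a mean of at least 5 units (1 unit is the value of 1 read, 0.229 CPM here). Of these, 959 were higher and 1238 lower in F1 P5 than in P4 cells. Over all 101401 loci tested, 17.6% were higher and 21.6% lower, so that the 17.3% and 22.3% of the elements were near the background. On a common total the split turned to 1125 higher and 709 lower. In DMSO libraries alone 318 were higher and 342 lower. By the quasi-likelihood test of edgeR 1035 were higher and 850 lower (18.7% and 15.3%, against 19.2% and 14.0% of all loci). The counts on a common total and in DMSO libraries alone have no such share beside them. Among the limma calls, the groups did not overlap for 109 of the higher and 43 of the lower elements. Loci without overlap were not counted over all loci, so 109 and 43 have no background beside them.

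Among the higher elements without overlap, the 3 largest increases were at elements with low P4 values. ORR1C2 at chr10:77195435-77195809, outside genes, had a lowest, median and highest value of 0, 0 and 2.85 CPM in P4 libraries and of 3.11, 6.26 and 12.2 CPM in P5 libraries. It was at 0 in 8 of 12 P4 libraries and in none of the 11 P5 libraries, and its fitted difference was 4.01 (SE 0.39, FDR = 6.40e-10). ORR1B1 in an intron of the collagen gene Col5a1, at chr2:28035587-28035782, ran from 0.199 to 1.25 CPM in P4 and from 4.39 to 15.9 CPM in P5 (log2 difference 3.16, SE 0.26). ORR1B2 overlapping an exon of Brf1, which codes for a subunit of an RNA polymerase III initiation factor, ran from 0.229 to 5.94 CPM in P4 and from 9.25 to 39.0 CPM in P5 (3.02, SE 0.34). That element lies at chr12:112987473-112987793 and had a P4 mean of 2.79 CPM. The ORR1C2 and Col5a1 elements had P4 means of 0.397 and 0.670 CPM, under 5 units, and passed the filter only through P5.

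The 3 largest decreases without overlap were smaller and lay in introns, as did 1187 of the 1238 lower elements and 5087 of the 5546 tested. ORR1C1 at chr15:64200278-64200664, in the Arf GTPase activator gene Asap1, ran from 66.1 to 94.4 CPM in P4 and from 38.4 to 55.6 CPM in P5, and fell by 0.84 (SE 0.083, FDR = 6.79e-10). ORR1C2 at chr9:71272458-71272821, in the retinoic acid synthesis gene Aldh1a2, ran from 42.4 to 66.0 and from 16.4 to 40.1 CPM, and fell by 0.84 (SE 0.10). ORR1B1 at chrX:16755216-16755410, in the monoamine oxidase gene Maob, ran from 7.78 to 16.9 and from 3.11 to 7.69 CPM, and fell by 0.84 (SE 0.16). In none of the 3 did the populations overlap.

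Elements outside genes went the other way from the totals. Summed over the loci outside genes, each of the 8 subtypes was higher in F1 P5 than in F1 P4 cells, and each also was on a common total and in DMSO libraries alone. Over all 663 species with such a total 88.2% were higher, so the direction was shared by most LTR species. ORR1B1 copies outside genes had a lowest, median and highest value of 224, 278 and 320 CPM in P4 and of 459, 611 and 929 CPM in P5, with a log2 difference of 1.24 (SE 0.11, FDR = 5.50e-11). ORR1C2 copies had 83, 102 and 130 CPM in P4 and 183, 320 and 417 CPM in P5 (1.57, SE 0.12). ORR1B1-int had 25.6, 45 and 60.9 CPM in P4 and 95.2, 143 and 233 CPM in P5 (1.8, SE 0.16). For 5 subtypes, the 4 LTRs and ORR1B1-int, every P5 library lay above every P4 library.

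ORR1C1 and ORR1C1-int had the smallest differences of the 8. ORR1C1 rose by 0.84 (SE 0.092, FDR = 1.91e-09) and ORR1C1-int by 0.52 (SE 0.14, FDR = 0.00117), with 8 of 11 P5 libraries above every P4 library for ORR1C1-int. The median difference was 1.31 over the 8 subtypes, 1.30 over all 663 species, 1.55 over the ORR1A species and 1.10 over the ORR1D and ORR1E species. The differences between these families were not tested.

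**Figure D3:**
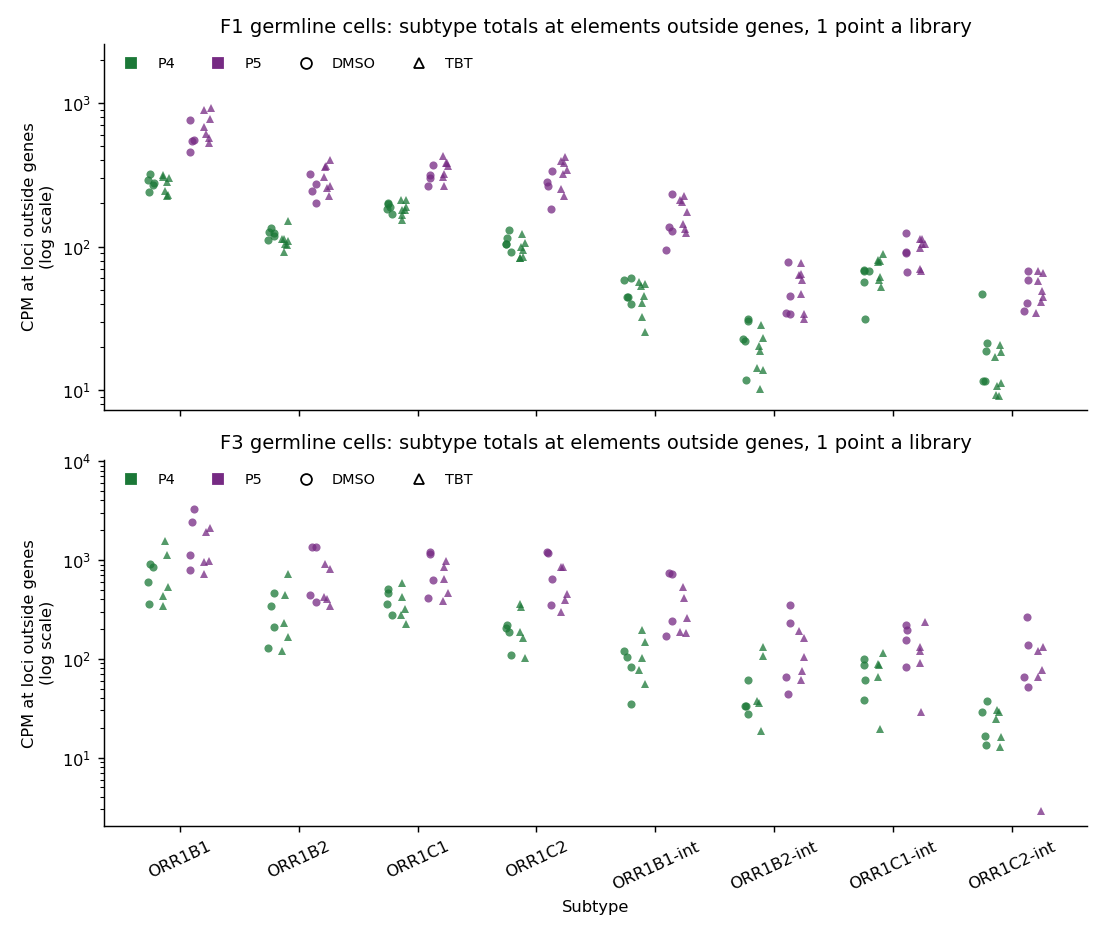
Summed CPM of the elements outside genes for each subtype, on a log axis, in P4 (green) and P5 (purple) libraries of F1 (top) and F3 (bottom). Each point is a library, with circles for DMSO and triangles for TBT. In F1 the P5 points of the 4 LTR subtypes and ORR1B1-int lie above all P4 points, and in F3 all subtypes overlap.

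F3 germline cells were more variable. No whole subtype total passed the threshold, with differences from -0.070 (SE 0.44) for ORR1C2-int to -0.51 (SE 0.30) for ORR1C1-int and a lowest FDR of 0.570. None of the 8 had an unadjusted limma p under 0.05, against 77 of all 677 species, of which 2.36% passed as higher and 0.148% as lower. Outside genes, 7 of the 8 subtypes were higher in P5, where 54.6% of all 661 species were. ORR1C2 copies outside genes had a lowest, median and highest value of 101, 187 and 362 CPM in 9 P4 libraries and of 298, 643 and 1199 CPM in 9 P5 libraries, a log2 difference of 1.68 (SE 0.34, FDR = 0.00042). ORR1C1-int did not pass on the deposited scale, with 0.87 (SE 0.40, FDR = 0.0695), and passed on a common total (1.17, FDR = 0.00987). All 8 subtypes overlapped between the populations. ORR1C1-int passed without P5 TBT 5 (FDR = 0.00934) or without P4 TBT 8 (0.0495), and ORR1C2-int did not pass without P5 DMSO 1 (0.0531). In DMSO libraries alone 5 of the 8 were higher, and without the libraries numbered 1, 2, 5 and 9 of both populations 7 were.

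Of 5273 elements tested in F3 P4 and P5 cells, 31 were higher and 4 lower in P5, where 1% and 0.0112% of all 98076 loci were. The 4 lower ones were the Sub1 elements described above, which had nearly equal values. At chr15:11988185-11988285 the P4 values were 2571, 2469, 1491 and 1346 CPM in the DMSO and 1395, 867, 1291, 1343 and 1804 CPM in the TBT libraries. The P5 values were 1340, 583, 766 and 522 CPM in the DMSO and 309, 896, 428, 2193 and 935 CPM in the TBT libraries. The populations overlapped, and the value fell by 1.03 (SE 0.27, FDR = 0.0461). This call at chr15:11988185-11988285 did not hold on a common total (-0.73, FDR = 0.0677), with 0.25 units added (0.0620), without a filter (0.443), with a mean of at least 20 units (0.254), by the quasi-likelihood test of edgeR (0.200) or without numbers 1, 2, 5 and 9 (-0.63, FDR = 0.366). With 1 library left out it held only without P4 TBT 6, P5 DMSO 1 or P5 TBT 8, and FDRs without each of the others ran from 0.0513 to 0.110.

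Of the higher elements without overlap, ORR1C1 at chr12:98896007-98896380, in an intron of Eml5, which codes for a microtubule-associated protein, changed most. It was at 0 in 7 of 9 P4 libraries, with 1.47 CPM in DMSO 2 and 0.332 in TBT 6. In P5 it had 5.91, 49.3, 8.30 and 4.62 CPM in the DMSO and 40.2, 3.52, 8.35, 4.98 and 4.01 CPM in the TBT libraries, and the 2 highest values came from the shallow libraries DMSO 2 and TBT 5. The fitted difference was 4.65 (SE 0.76, FDR = 0.00128). ORR1B1-int at chr11:115730235-115730347 and ORR1B1 at chr1:136754384-136754683, both outside genes, were at 0 in 7 and 8 of 9 P4 libraries and above 0 in all P5 libraries. The P4 means of the 3 elements, at most 0.200 CPM, were under 5 units, so that they passed the filter only through P5. The ORR1B1 copy had 2 reads over all P4 libraries and 128 over all P5 libraries, a ratio of 60.7 with a 95% counting interval of 16.5 to 506. In DMSO libraries alone none of the 3 passed, with FDRs of 0.153 for the Eml5 element, 0.223 for ORR1B1-int and 0.288 for the ORR1B1 copy.

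The count of F3 elements moved with the libraries. It was 130 without P5 TBT 5, 15 without P5 TBT 9, 17 without P5 TBT 6, 19 without P4 DMSO 1 or DMSO 2, 12 without P4 DMSO 3, 14 without P4 DMSO 4 and 16 without P4 TBT 7. Without the libraries numbered 1, 2, 5 and 9 it was 127, with 115 higher and 12 lower.

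The comparison of TBT with DMSO asked whether F0 exposure altered the RNA of these elements. No subtype total passed an FDR of 0.05 in any population of either generation. Nor did any species total, so the background was 0% in each comparison. In F1 P4 cells ORR1C1-int came closest. Its DMSO libraries held 1005, 1094, 913, 954 and 1136 CPM, and its 7 TBT libraries had a lowest, median and highest value of 1027, 1099 and 1255 CPM. The groups overlapped, with a log2 difference of 0.15 (SE 0.059, FDR = 0.448). 2 of the 8 subtypes had an unadjusted limma p under 0.05 there, where 52 of 673 species did. In F1 P5 cells the differences of the 8 totals ran from -0.0028 (SE 0.082, ORR1C1-int) to 0.029 (SE 0.063, ORR1B2), with a lowest FDR of 0.998 and no unadjusted p under 0.05. In F1 P6 cells they ran from -0.042 (SE 0.051, ORR1C2-int) to 0.090 (SE 0.077, ORR1C1-int), with a lowest FDR of 0.744 and no unadjusted p under 0.05.

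F3 totals were as little separated. In F3 P4 cells all 8 were lower in TBT on the deposited scale, by 0.35 (SE 0.25, ORR1B2-int) to 0.67 (SE 0.43, ORR1C2-int), with a lowest FDR of 0.516 and a median of -0.44 against -0.41 over all 674 species. On a common total ORR1B1-int and ORR1B2-int turned to 0.033 and 0.060, and without the shallow libraries TBT 5 and TBT 9 ORR1C2-int turned to 0.024. In F3 P5 cells all 8 differences were below 0, down to -0.47 (SE 0.74, ORR1C2-int). The mean CPM went the other way for 6 of them, with ORR1B1 at 18494 CPM in DMSO and 20298 CPM in TBT. All 8 log2 differences turned positive, by 0.040 to 0.32, without the shallow libraries DMSO 1, DMSO 2 and TBT 5. In F3 P6 cells the spread was narrow. ORR1C1-int had 627, 623, 636 and 593 CPM in the DMSO and 581, 601, 577, 545 and 583 CPM in the TBT libraries, with 4 of 5 TBT libraries below every DMSO library and a log2 difference of -0.10 (SE 0.035, FDR = 0.317). It was 1 of 8 subtypes with an unadjusted limma p under 0.05, where 63 of 670 species had one.

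**Figure D4:**
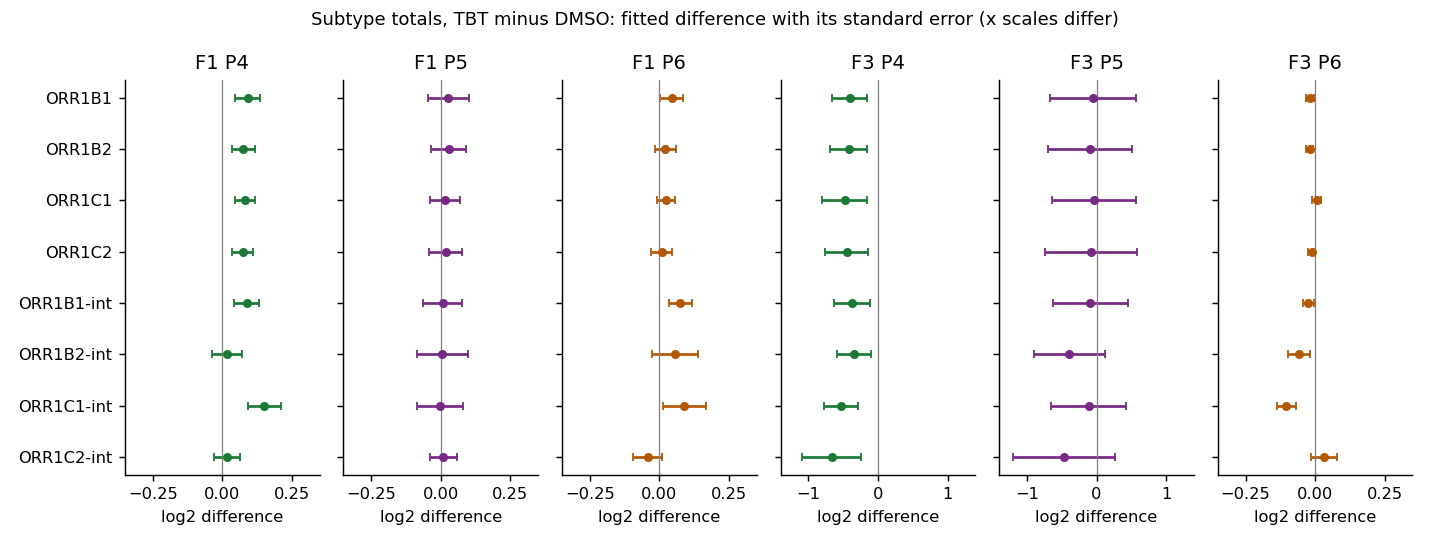
Fitted log2 difference of each subtype total, TBT minus DMSO, with its standard error, in the 6 combinations of generation and population. The x axis is wider for F3 P4 and F3 P5. None of the differences passed an FDR of 0.05.

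No subtype passed the test of the TBT effect in P5 against that in P4 cells. In F1 the difference of the effects ran from -0.15 (SE 0.10) for ORR1C1-int to -0.0088 (SE 0.064) for ORR1C2-int, and in F3 from -0.041 (SE 0.56) for ORR1B2-int to 0.44 (SE 0.69) for ORR1C1, with FDRs of 0.997 and 0.999.

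At single elements, limma called differences between TBT and DMSO in F1 P5 and in F3 P6 cells. The number past an FDR of 0.05 was 0 of 5094 in F1 P4, 3 of 6542 in F1 P5, 0 of 4941 in F1 P6, 0 of 4731 in F3 P4, 0 of 5602 in F3 P5 and 2 of 5836 in F3 P6 cells, and all 5 were higher in TBT. The likelihood ratio test of edgeR gave 9 higher and 2 lower elements in F1 P5 cells (0.138% and 0.0306%, against 0.251% and 0.0679% of all loci). In F3 P6 cells it gave 8 higher and 3 lower (0.137% and 0.0514%, against 0.160% and 0.159% of all loci). Over all loci limma called 0% higher in the P4 comparisons and in F3 P5, 0.0106% in F1 P5, 0.00341% in F1 P6 and 0.02% in F3 P6. It called 0% lower except 0.0143% in F3 P6. Where limma called none, an unadjusted p under 0.05 was found for 402 elements in F1 P4 (7.89%, against 7.09% of all loci), 164 in F1 P6 (3.32% against 3.68%), 62 in F3 P4 (1.31% against 1.65%) and 32 in F3 P5 (0.571% against 1.01%). The quasi-likelihood and likelihood ratio tests of edgeR and DESeq2 on the reads gave 0 in F1 P4, F1 P6 and F3 P4, and in F3 P5 the likelihood ratio test gave 175, with 23 higher (0.411%, against 0.6% of all loci) and 152 lower (2.71% against 2.43%), and the other tools 0. In F3 P4 cells the median difference of the elements was -0.72 against -0.69 for all loci, and TBT 5 and TBT 9 were the shallow libraries.

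The 3 elements of F1 P5 cells were low in DMSO libraries. Those in Dnah2 and on chromosome 19 had DMSO means of 0.0584 and 0.275 CPM, under 5 units, and passed the filter only through TBT. ORR1C1-int at chr11:69488828-69489950, in an intron of the axonemal dynein gene Dnah2, had 0, 1, 0 and 0 reads in the DMSO libraries and 13, 17, 24, 9, 23, 15 and 9 reads in the TBT libraries, from 1.59 to 4.80 CPM with a median of 2.90. The ratio was 61.1 with a 95% counting interval of 10.7 to 2435, and the fitted log2 difference, which depends on the unit added, was 3.78 (SE 0.50, FDR = 0.00612). ORR1B1 at chr19:56823137-56823496, outside genes and the fifth sequence above, had 0, 0.934, 0 and 0.168 CPM in DMSO and 1.74, 3.33 and 5.12 CPM as lowest, median and highest in TBT, with a difference of 3.32 (SE 0.50, FDR = 0.0260). ORR1B1 at chr5:148244037-148244319, in an intron of the microtubule-associated gene Mtus2 and the sixth sequence above, had 5.74, 2.33, 3.79 and 4.2 CPM in DMSO and 9.84, 17.6 and 26.6 CPM in TBT, with a difference of 2.02 (SE 0.27, FDR = 0.00612). In all 3 every TBT library lay above every DMSO library. The first part of the label number, which several libraries share, also differed between all TBT and all DMSO libraries. The part of this grouping in the 3 calls was not tested.

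Other measures moved with exposure in these libraries. The 10043 LTR loci outside genes tested in F1 P5 cells had a median log2 difference of 0.37, TBT minus DMSO, and the 324 ORR1B and ORR1C elements among them also had one of 0.37. An unadjusted p under 0.05 was found for 18.3% and 15.7% of them. Loci inside 7 somatic testis markers summed to between 34.8 and 104 CPM in the DMSO and between 26.6 and 54.1 CPM in the TBT libraries, and their part in these calls was not tested.

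The Mtus2 element passed with each library left out. The Dnah2 element did not pass without TBT 45-5 (FDR = 0.0549) or TBT 47-3 (0.0581). ORR1B1 on chromosome 19 did not pass without TBT 45-3 (FDR = 0.0590), 45-4 (0.0737), 45-5 (0.0697), 47-1 (0.129), 47-3 (0.0997) or 47-4 (0.0852), nor with 0.25 units added (0.106) or by the quasi-likelihood test of edgeR (0.171). All 3 elements were low in F1 P4 cells, where the means of DMSO and TBT were 0.700 and 0.156 CPM for the Dnah2 element, 0.717 and 0.270 for the chromosome 19 element and 0.941 and 1.57 for the Mtus2 element. In F3 P5 cells the Mtus2 element had 48.9 ± 21.4 CPM (SD, n = 4) in DMSO and 14.8 ± 11.8 (SD, n = 5) in TBT libraries. The Dnah2 element had means of 9.23 CPM in DMSO and 3.87 in TBT there, and the chromosome 19 element 0.462 and 5.17, with at least 1 library at 0 in each of these 4 groups. None of the 3 passed the threshold in F3 P5 cells.

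**Figure D5:**
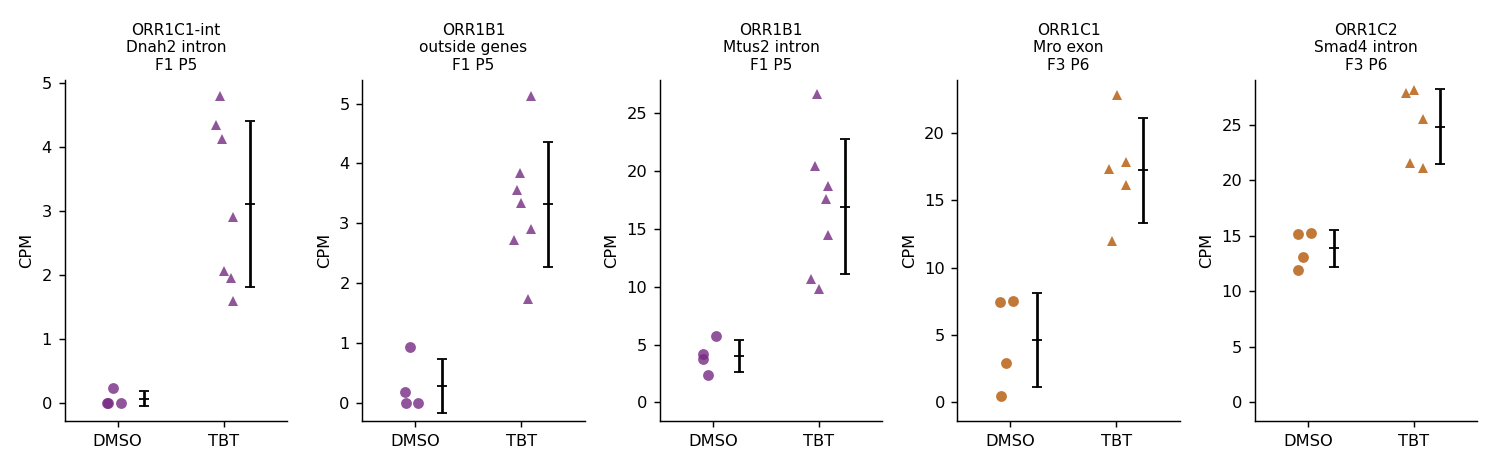
CPM in each library at the 5 elements past an FDR of 0.05 between TBT (triangles) and DMSO (circles), with the mean ± SD beside the points. In every panel the TBT points lie above the DMSO points.

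The 2 elements of F3 P6 cells both lie on chromosome 18. ORR1C1 at chr18:73879000-73879190 overlaps an exon of Mro, a gene expressed in the developing testis. It had 7.54, 2.93, 0.496 and 7.49 CPM in DMSO and 22.8, 16.1, 17.3, 17.9 and 12 CPM in TBT libraries, with a log2 difference of 2.34 (SE 0.43, FDR = 0.0421). ORR1C2 at chr18:73679766-73680112 lies in an intron of Smad4, the common mediator of TGF-beta and BMP signals. It had 15.3, 13.1, 11.9 and 15.2 CPM in DMSO and 28.1, 21.1, 27.8, 25.5 and 21.5 CPM in TBT libraries, with a difference of 0.83 (SE 0.14, FDR = 0.0211). Neither pair of groups overlapped. In F1 P6 cells the means of DMSO and TBT were 16.9 and 22.6 CPM for the Mro element and 22.2 and 24.3 CPM for the Smad4 element, and both ranges overlapped. Germ cell marker genes summed to between 14.4 and 168 CPM in the DMSO and between 15.3 and 22.8 CPM in the TBT libraries of F3 P6 cells, and their part in these results was not tested.

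Neither call held in every set of libraries. The Mro element did not pass without TBT 5 (FDR = 0.149), TBT 6 (0.177), TBT 7 (0.134), TBT 8 (0.0898), TBT 9 (0.0973) or DMSO 2 (0.0536), nor with 0.25 units added (0.105) or by DESeq2 (0.273). The Smad4 element did not pass without TBT 5 (0.0900), TBT 6 (0.119) or TBT 7 (0.0792). The number of elements called was 0 without TBT 5, TBT 6 or TBT 7, 1 without TBT 8 or TBT 9, 4 without DMSO 1 or DMSO 3 and 6 without DMSO 2.

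Elsewhere the elements with the lowest p in each direction are given as values. In F1 P4 cells ORR1B1 in an intron of the flippase gene Atp9a had means of 25 CPM in DMSO and 36.2 in TBT, and ORR1B2 in an intron of the microtubule gene Map9 had 4.97 and 2.02, both with an FDR of 0.582. In F1 P5 cells ORR1C2 in an intron of the lactate dehydrogenase gene Ldhb had 23.4 CPM in DMSO and 12.4 in TBT (FDR = 0.369, and 0.0446 by the likelihood ratio test of edgeR). In F1 P6 cells ORR1B1-int in Faf2 had 3.68 and 6.70 CPM, and ORR1B1 in the Polycomb gene Mtf2 had 8.35 and 5.03 (both FDR = 0.999). In F3 P6 cells ORR1B1 in the smooth muscle actin gene Actg2 had 5.30 and 2.09 CPM (FDR = 0.238, and 0.0283 by the likelihood ratio test). In F3 germline cells the 4 elements of lowest p, 3 of them outside genes, had an FDR of at least 0.870, and in each 1 group was at 0 in at least 3 libraries. One of them, ORR1B1-int at chr14:35664116-35664478 in F3 P5 cells, passed as lower in TBT by the likelihood ratio test (FDR = 0.0188).

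Methylated DNA of P6 cells was counted in windows of 100 bp, of which 790 of 154773 in F1 and 796 of 164382 in F3 lay with at least 50 bases in an ORR1B or ORR1C element. That is 0.510% and 0.484% of the windows. The windows were poor in CpG, with 63.9% in F1 and 61.8% in F3 without any, against 53.0% of all windows in each generation. No window over an element passed an FDR of 0.05 between TBT and DMSO. In F1 90 such windows were tested, where 0.00579% of all 34559 were higher and 0.026% lower, and in F3 163 were tested, where 0% of 47563 were called. An unadjusted p of edgeR under 0.05 was found for 1.11% of the F1 and 3.68% of the F3 element windows, against 5.01% and 5.19% of all windows.

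The windows of lowest p are given as values. In F1 the window at chr2:131979001-131979100, over an ORR1B2 LTR outside genes, had 11 ± 2.25 CPM (SD, n = 3) in DMSO and 18 ± 2.75 (SD, n = 4) in TBT, and that at chr11:107964701-107964800, over an ORR1B1 in an intron of the kinase gene Prkca, had 16.2 ± 6.15 and 10.4 ± 1.26 (both FDR = 0.974). In F3 the window at chr8:110291401-110291500, over an ORR1C2 in an intron of the cilia gene Hydin, had 6.55 ± 2.12 CPM (SD, n = 5) and 11.2 ± 2.47 (SD, n = 7). The window at chr14:77761901-77762000, over an ORR1B1 outside genes, had 16.7 ± 3.45 and 10.6 ± 3.17 (both FDR = 0.914).

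With 0 or 1 CpG, windows over the elements held fewer captured reads than windows outside LTR loci of the same CpG number. With no CpG, the 505 F1 windows had 3.62 ± 0.326 CPM (SD, n = 3) per window in DMSO, against 4.38 ± 0.161 for 70777 windows outside LTR loci, a ratio of 0.827, and in TBT the ratio was 0.843. In F3 it was 0.814 in DMSO and 0.800 in TBT. With 1 CpG the ratios were 0.796 and 0.810 in F1 and 0.797 and 0.799 in F3. In all 19 MBD libraries the elements were below the windows outside LTR loci with 0 or 1 CpG. With 2 CpG the ratio was 0.934 and 0.930 in F1 and 1.04 and 1.01 in F3, where 4 of 5 DMSO and 4 of 7 TBT libraries lay above the windows outside LTR loci. With more CpG, over 20 and 22 windows, it was 0.922 and 0.964 in F1 and 0.959 and 0.911 in F3. ORR1A windows gave ratios from 0.657 to 0.780 with 0 or 1 CpG, and ORR1D and ORR1E windows from 0.989 to 1.07. How many reads of each window map uniquely was not measured, and its part in these ratios was not tested.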

How the data were processed

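RNA of sorted P4, P5 and P6 cells (62 libraries, 12 groups taken from the sample labels) and methylated DNA of P6 cells (19 libraries) were analysed from processed tables. The deposited mERV values are a signal, CPM on the TMM scale. The authors made cDNA by oligo(dT) priming, trimmed reads with Trim Galore, aligned them to GRCm38 (mm10) with STAR and counted them at RepeatMasker LTR loci with a modified ERVmap, in 4 tables normalised separately (germline and P6 cells, F1 and F3). Every value was a whole multiple of that of 1 read (0.181 to 0.294 CPM as the median of a comparison, tolerance 0.01), so that reads could be recovered. The deposited MBD values are counts per 100 bp window, and no aligner is given for them in the sources used here. How reads that map to several copies were handled decides the level of single copies.

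Members were all loci named ORR1B or ORR1C, and members and lists were chosen with earlier results of these data known. limma 3.58.1 (trended variance, R 4.3.3) was run on log2(CPM + 1 unit) for loci averaging 5 or more units and for species totals, with Benjamini-Hochberg FDR over all loci or species and a threshold of 0.05. Because the values are not counts, the likelihood ratio test named by the authors was an alternative on recovered reads, beside edgeR 4.0.16 quasi-likelihood and DESeq2 1.42.0. A log2 difference on this scale understates the change of low loci. MBD counts were tested with edgeR quasi-likelihood. Fits were tested on simulated data. Named loci were the 3 higher and 3 lower elements of largest difference past the threshold without overlap, otherwise the one of lowest p in a direction, and the 3 highest per population inside and outside genes, and windows were the gained and the lost one of lowest p. The overlapping Sub1 elements and the last 2 printed sequences were named after their values were seen. Other alternatives were pseudocounts of 0.25 and 4 units, no filter or 20 units, a common total per library, loci outside genes, DMSO libraries alone, the replicate number as a block and each library left out. Whether libraries of a group are separate fetuses is not stated by the labels, and p-values measure the spread between these libraries. Most F1 germline libraries share the first part of their label number with other libraries of the same exposure. No first part occurs in both DMSO and TBT libraries. The fits of TBT against DMSO treated the libraries as independent, and the part of this grouping in F1 germline differences was not tested. No pair of RNA libraries of a group agreed within sampling noise (chi-square per degree of freedom of at least 1.6). The tables give 0-based starts, to which 1 was added (checked on 27977 long LTR loci of chromosome 1, of which 52.6% then begin with TG, against 3.10% from 1 base earlier), and no strand, so sequences are on the forward strand of GRCm38. 0 columns belonged to samples outside the labels. The counting interval is exact and covers counting error only. Biopython 1.88 and matplotlib 3.10.9 were used for sequences and figures.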

Additional observations from a re-analysis of the deposited data

Results flagged for a closer look

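Of 201 groups of 4 to 10 samples tested with Dixon's criterion for a sample far from the others, 25 held such a sample. Chance gives about 1 in 20 groups. Of the 25, 11 were subtype totals, and 6 of these were the same library, F1 P6 TBT 11, which was the highest of 7. It held 20103 CPM of ORR1B1 (next 17662), 4822 of ORR1B1-int, 10528 of ORR1B2, 9346 of ORR1C1 (next 8535), 859 of ORR1C1-int and 17484 of ORR1C2. Its share of ORR1B and ORR1C reads outside genes was 0.51%. The F1 P5 DMSO library 44-1 held 756 CPM of ORR1B2-int, the highest of 4, and F1 P6 DMSO 1 held 735 CPM, the lowest of 5. In F3 P5 cells TBT 5, the library of fewest reads, held the lowest totals, 2497 CPM of ORR1C2 and 65.1 CPM of ORR1C2-int, and DMSO 2 held 425 CPM of ORR1C2-int. TBT 5 also had the highest share of reads outside genes among the 5 F3 P5 TBT libraries, 19.9%, and DMSO 48-4 the highest share of all LTR reads among the 4 F1 P5 DMSO libraries, 6.11%.

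Single elements made up 12 of the 25. In 7 of them 1 library held a few reads and the others of its group none. These were 0.467 CPM at ORR1B1 chr1:136754384-136754683 in F3 P4 DMSO 4, 0.462 at ORR1B1 chr2:103804809-103805144 in F3 P5 DMSO 4, 0.565 at ORR1B1 chr7:24225286-24225672 in F3 P4 DMSO 1, 1.47 and 0.332 at the Eml5 element in F3 P4 DMSO 2 and TBT 6, 0.233 at the Dnah2 element in F1 P5 DMSO 43-5, and 2.85 at ORR1C2 chr10:77195435-77195809 in F1 P4 TBT 47-3. The other 5 were high values in P5 cells. The element on chromosome 1 reached 27.6 CPM in F3 DMSO 1, the Eml5 element 49.3 in F3 DMSO 2 and 40.2 in F3 TBT 5, ORR1B1-int at chr11:115730235-115730347 37.3 in F3 TBT 5, and the Brf1 element 28.4 in F1 DMSO 44-1. The 4 F3 values came from the libraries of fewest reads in F3 P5 cells. What set these libraries apart was not tested.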

How the results depend on the processing

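No subtype total passed between TBT and DMSO under any scaling, pseudocount or set of libraries tried, and the differences near 0 changed sign readily. No call on a window of methylated DNA appeared with total counts, without a filter, by DESeq2, with an overlap of 1 base or with any library left out. The number of elements called in F1 P5 cells was 30 without a filter, 1 with a mean of at least 20 units and 11 by the likelihood ratio test of edgeR on reads (9 higher and 2 lower), and in F3 P5 cells the last gave 175. In F3 P6 cells it was 1 with 0.25 units added, 4 without a filter, 11 by the likelihood ratio test (8 higher and 3 lower) and 1 by DESeq2. For the likelihood ratio test the shares of all loci stand beside the same counts in the Results. Between P5 and P4 cells, 660 F1 elements were called in DMSO libraries alone, where fewer samples enter. In F3 the count was 5 in DMSO libraries alone (1 higher and 4 lower), 13 without a filter, 7 with a mean of at least 20 units, 252 by the quasi-likelihood test of edgeR and 127 without numbers 1, 2, 5 and 9. By the quasi-likelihood test 4.76% of the F3 elements were higher and 0.019% lower, against 6.06% and 0.0958% of all loci. The number of F3 subtype totals called was 2 on a common total, 1 in DMSO libraries alone and 7 over loci outside genes. Where no construction is named, the cause was not tested.

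With every library on a common total, these subtype totals changed sign. F1 P4 differences of TBT and DMSO stood at -0.058 (ORR1B2-int), -0.00055 (ORR1C2) and -0.057 (ORR1C2-int). F1 P5 differences of TBT and DMSO stood at -0.0051 (ORR1B1), -0.026 (ORR1B1-int), -0.0041 (ORR1B2), -0.028 (ORR1B2-int), -0.019 (ORR1C1), -0.015 (ORR1C2) and -0.024 (ORR1C2-int). F1 P6 differences of TBT and DMSO stood at -0.0061 (ORR1B2), -0.0038 (ORR1C1) and -0.020 (ORR1C2). F3 P4 differences of TBT and DMSO stood at 0.033 (ORR1B1-int) and 0.060 (ORR1B2-int). F3 P5 differences of TBT and DMSO stood at 0.077 (ORR1B1), 0.045 (ORR1B1-int), 0.040 (ORR1B2), 0.092 (ORR1C1), 0.022 (ORR1C1-int) and 0.057 (ORR1C2). F1 differences of P5 and P4 stood at 0.049 (ORR1B2-int) and 0.015 (ORR1C2). F3 differences of P5 and P4 stood at 0.14 (ORR1B2-int) and 0.24 (ORR1C2-int). The P5 minus P4 TBT effect in F1 stood at 0.030 (ORR1B2-int) and 0.033 (ORR1C2-int). The P5 minus P4 TBT effect in F3 stood at -0.076 (ORR1C2-int).

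Summed over loci outside genes only, these subtype totals changed sign. F1 P4 differences of TBT and DMSO stood at -0.043 (ORR1B1), -0.20 (ORR1B1-int), -0.15 (ORR1B2), -0.35 (ORR1B2-int), -0.033 (ORR1C1), -0.19 (ORR1C2) and -0.54 (ORR1C2-int). F1 P5 differences of TBT and DMSO stood at 0.050 (ORR1C1-int). F1 P6 differences of TBT and DMSO stood at 1.22 (ORR1C2-int). F3 P4 differences of TBT and DMSO stood at 0.077 (ORR1B1), 0.43 (ORR1B1-int), 0.088 (ORR1B2), 0.47 (ORR1B2-int) and 0.23 (ORR1C2). F3 P6 differences of TBT and DMSO stood at 0.00076 (ORR1B1-int), 0.28 (ORR1B2-int), 0.012 (ORR1C2) and -0.78 (ORR1C2-int). F1 differences of P5 and P4 stood at 1.24 (ORR1B1), 1.8 (ORR1B1-int), 1.30 (ORR1B2), 1.33 (ORR1B2-int), 0.84 (ORR1C1), 0.52 (ORR1C1-int) and 1.57 (ORR1C2). F3 differences of P5 and P4 stood at 1.08 (ORR1B1), 1.83 (ORR1B1-int), 1.22 (ORR1B2), 1.36 (ORR1B2-int), 0.91 (ORR1C1), 0.87 (ORR1C1-int), 1.68 (ORR1C2) and 1.63 (ORR1C2-int). In F1 P6 cells the copies of ORR1C2-int outside genes held 65.7 and 95.7 CPM in TBT 7 and TBT 8, which stood apart, 3.52 to 13.1 CPM in the other TBT libraries and 3.47 to 11.2 CPM in DMSO libraries.

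Sets without shallow libraries, and the separate test of P5 against P4 on totals outside genes, were chosen after seeing the data. The shallowest library, F3 P5 TBT 5, held 246520 reads at LTR loci. Without DMSO 1, DMSO 2 and TBT 5 the F3 P5 differences of TBT and DMSO turned to 0.21 (ORR1B1), 0.15 (ORR1B1-int), 0.17 (ORR1B2), 0.11 (ORR1B2-int), 0.14 (ORR1C1), 0.32 (ORR1C1-int), 0.11 (ORR1C2) and 0.040 (ORR1C2-int), without TBT 5 and TBT 9 that of F3 P4 turned to 0.024 (ORR1C2-int), and without numbers 1, 2, 5 and 9 that of F3 P5 and P4 turned to 0.030 (ORR1C2-int). Without F1 P6 TBT 7 and TBT 8, 0 elements were called.

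With 1 library left out, the number of elements called ran from 1 to 3 in F1 P5, from 0 to 6 in F3 P6 and from 12 to 130 for F3 P5 against P4. Subtype totals that changed sign with a library left out had these ranges. F1 P5 differences of TBT and DMSO ran from -0.012 to 0.053 (ORR1B1), -0.031 to 0.033 (ORR1B1-int), -0.0042 to 0.051 (ORR1B2), -0.032 to 0.052 (ORR1B2-int), -0.014 to 0.034 (ORR1C1), -0.043 to 0.037 (ORR1C1-int), -0.016 to 0.038 (ORR1C2) and -0.021 to 0.030 (ORR1C2-int). F3 P5 differences of TBT and DMSO ran from -0.27 to 0.39 (ORR1B1), -0.27 to 0.36 (ORR1B1-int), -0.30 to 0.40 (ORR1B2), -0.62 to 0.024 (ORR1B2-int), -0.26 to 0.47 (ORR1C1), -0.39 to 0.33 (ORR1C1-int), -0.31 to 0.48 (ORR1C2) and -0.72 to 0.28 (ORR1C2-int). F1 P6 differences of TBT and DMSO ran from -0.0073 to 0.032 (ORR1B2), -0.0068 to 0.092 (ORR1B2-int), -0.00032 to 0.035 (ORR1C1) and -0.021 to 0.022 (ORR1C2). F3 differences of P5 and P4 ran from -0.28 to 0.055 (ORR1B2-int) and -0.25 to 0.32 (ORR1C2-int). F1 P4 differences of TBT and DMSO ran from -0.011 to 0.045 (ORR1B2-int) and -0.0036 to 0.041 (ORR1C2-int). F3 P6 differences of TBT and DMSO ran from -0.0022 to 0.013 (ORR1C1). F1 differences of P5 and P4 ran from -0.0072 to 0.016 (ORR1C2-int).

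P4 and P5 libraries share numbers, and the labels do not say that a number is 1 fetus. Over the pairs of a number, the deviations from the group means correlated at 0.0019 to 0.28 in F1 (11 pairs) and at -0.088 to 0.46 in F3 (9 pairs), with medians of 0.107 and 0.236. 6 and 7 pairs were over 0.1, and 5 and 4 P4 libraries correlated best with their own number. That is a hint of shared fetuses for some numbers, and since it did not hold for every pair and the labels do not state it, the fits without a block were kept. With the number as a block, 2495 F1 elements were called and 7 subtype totals, ORR1B2-int among them (-0.11, FDR = 0.00935), 65 F3 elements were called and 8 F3 totals outside genes, ORR1C1-int among them (0.87, FDR = 0.0133), and the P5 minus P4 TBT effect of ORR1B2-int in F1 turned to 0.0014.

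At single named elements, 184 values kept their direction and side of the threshold over the alternatives that leave out no single library, 31 lost and 4 gained a call, and none turned. With 1 library left out 339 kept both and 77 lost the call.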
